A study of Mus musculus with 2 samples.

Results

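The antioxidant and glutathione defence genes are 32 listed genes that remove superoxide and peroxides, make and recycle glutathione, run the thioredoxin system or control these enzymes. Members were taken as Affymetrix probe sets (groups of short probes for a transcript) whose only gene symbol in the platform annotation was that of a listed gene. By this rule 28 of the 32 genes were measured, by 63 of the 34945 probe sets that carry exactly 1 symbol, and the array named 18193 genes in this way in all. Prdx1 had 5 probe sets, but each also carried the symbol of Gm21399, so the rule left them out. Prdx5, Prdx6 and G6pdx had no probe set under their symbols in the annotation used here, so their signals were not analysed.

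The RNA came from C57BL/6 mouse marrow taken from femurs and kept in RPMI-1640 with 5% FBS. The ID8-induced MDSC sample was marrow that shared a transwell with ID8 cells, a mouse ovarian epithelial tumour line that the labels also spell 1D8, for 4 days with the tumour cells in the upper chamber, while its title names the tumour cell supernatant as the inducer. MDSC are myeloid-derived suppressor cells, immature myeloid cells that restrain T cells, and the labels give them the phenotype CD11b+Gr1+. The control was labelled only as control marrow cells, with the same phenotype and no tumour cells named, and the labels do not say how long it was cultured or how many mice either sample pooled. With 1 array in each group there was no replicate error and no test was possible, and the number of arrays limits the precision.

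The control column could not be used for any gene. Its signals fell along the list of probe set IDs, with 3103 rises in 45036 steps from row to row against 22454 in the ID8-induced column. All values are therefore from the ID8-induced MDSC array, and none shows that a gene was raised or lowered by tumour cells. The unit is the MAS5 signal, a linear brightness per probe set. A percentile says what percent of the array's 45037 probe sets were dimmer. The floor used below is the 40th percentile of the array, a signal of 68.77, and a signal above it is not by itself proof of expression. Signals of different genes depend on how well their probes hybridise, so where genes of a list are named by their signal, this only says which were picked and does not order the transcripts by abundance.

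The markers listed as neutrophil were bright in this sample. All 8 of them lay at or above the 90th percentile, against 14.8% of all named genes. They ran from Itgam, which encodes CD11b, at 2375 to S100a9, a calprotectin subunit, at 24857. At or above the same percentile lay 2 of 6 macrophage, 1 of 5 measured erythroid, 0 of 6 stromal and 0 of 8 epithelial markers. Of the other marker lists, 3 of 6 macrophage, 2 of 5 measured erythroid, 2 of 6 stromal and 6 of 8 epithelial markers had a probe set above the floor, against 71.3% of all named genes. The signals of the brightest probe sets summed to 107067 for neutrophil, 6330 for macrophage, 2000 for erythroid, 579.5 for stromal and 789 for epithelial markers. These sums are over different numbers of genes and are not comparable between lists, and Csf1r makes up 4403 of the macrophage and Alas2 1693 of the erythroid sum. On their brightest probe sets, the macrophage markers Csf1r, Adgre1 (F4/80) and C1qb read 4403, 1443 and 365. The dimmest probe set read 1126 for Csf1r and 18.71, below the floor, for C1qb. Mertk, Mrc1 and C1qa lay below the floor at 48.62, 35.06 and 35.04. CD11b is part of the phenotype that the labels give both samples. Whether the neutrophil list tells neutrophils from other myeloid cells was not tested. In bulk RNA, fewer cells of a type and less RNA per cell cannot be told apart.

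Superoxide, made by the oxidase of phagocytes and by mitochondria, is turned into hydrogen peroxide by superoxide dismutases. Catalase, peroxiredoxins and glutathione peroxidases then destroy the peroxide. For the peroxiredoxins and glutathione peroxidases, the electrons come from NADPH through thioredoxin or glutathione. Many of these genes are targets of the transcription factor NRF2, which KEAP1 holds in check and which binds a DNA sequence named the antioxidant response element. Neutrophils and suppressor cells make large amounts of such oxidants, and reactive oxygen species are among the known means by which MDSC restrain T cells.

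Most of these probe sets gave signals in the upper part of the array. Of the 63, 56 (88.9%) lay at or above the floor, against 63.5% of all probe sets with 1 symbol. At or above the 90th percentile, a signal of 619.81, lay 18 (28.6%), against 11.3% of all. At or above the 99th percentile, a signal of 4651, lay 5 (7.9%), against 0.947% of all. The median percentile was 79.2, with quartiles at 57.1 and 94.4, and the median over all probe sets with 1 symbol was 53.9. With the floor at the 20th percentile 60 probe sets passed it (82.2% of all with 1 symbol did), and with it at the 60th 46 did (43.9% of all). Probe sets without a suffix letter passed the floor at the 40th percentile in 36 of 40 cases, against 60.8% of all such probe sets. These shares describe 1 array, and no test stands behind them.

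**Figure D1:**
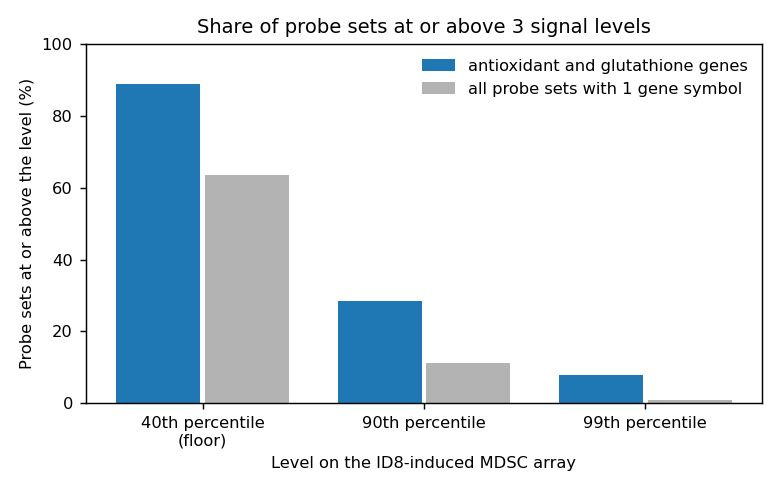
Percent of probe sets (vertical axis) at or above the 40th, 90th and 99th percentile of the ID8-induced MDSC array, for the 63 probe sets of the antioxidant and glutathione genes (blue) and all 34945 probe sets with 1 gene symbol (grey). The blue bars stand at 88.9%, 28.6% and 7.9% and the grey bars at 63.5%, 11.3% and 0.947%, from 1 array.

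Counted by gene, all 28 measured members had at least 1 probe set at or above the floor, as did 71.3% of all named genes, and 22 (78.6%) had every probe set there, against 49.7% of all named genes. For the other 6 genes, Sod1, Sod3, Prdx4, Txn1, Txnrd2 and Mgst1, the probe sets fell on both sides of it. A probe set at or above the 90th percentile was found for 12 members (42.9%), against 14.8% of named genes. Those at or above the 99th percentile were Sod2, Gsr, Txn1 and Mgst1 (14.3% of members, against 1.39% of named genes), of which Txn1 and Mgst1 each had their other probe set below the floor.

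**Figure D2:**
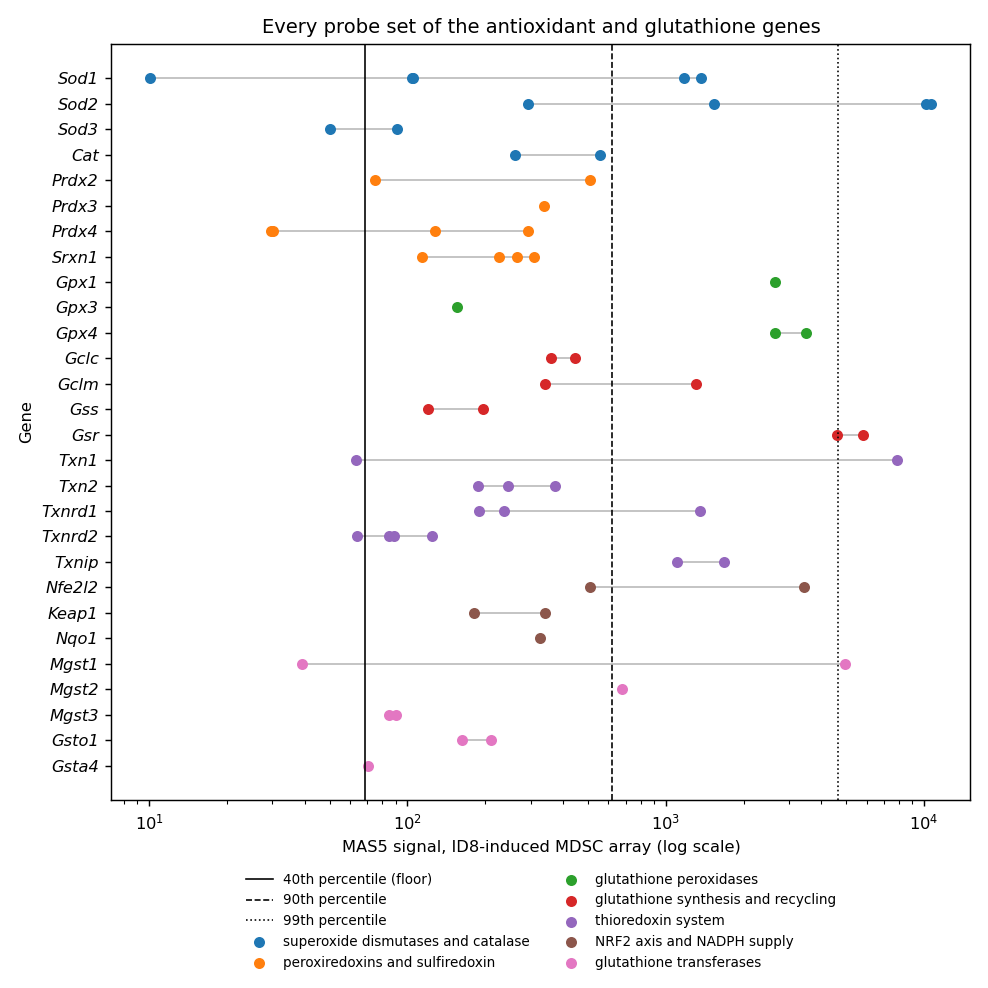
MAS5 signal on a log axis (horizontal) of every probe set of the 28 measured genes (vertical), coloured by role, with a grey line joining the probe sets of a gene and vertical lines at the 40th, 90th and 99th percentile of the array. Both Gsr probe sets lie near or beyond the line of the 99th percentile, at 4584 and 5786, while those of Sod1, Txn1 and Mgst1 reach from below the floor to beyond the 90th percentile.

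The antioxidant response element is where NRF2 could act on these genes, so its letters were searched in the RefSeq promoter windows (GRCm38.p6, 250 bases before to 50 bases after an annotated start). Of the 32 genes, 27 had such a window. Gclc, Gsr, Sod3, Prdx6 and Gsta4 had none, so they were not searched. The core TGACNNNGC, on either strand, stood in the windows of 8 of the 27 (29.6%), against 14.0% of 27025 genes with a window. The median GC content was 60.7% in member windows and 52.7% in all windows, and the shares were not matched for it. Of the 8 genes with a core, the 6 that were also measured are shown because they pair a core with a signal. Each sequence is 29 bases on the strand of its gene, 5′ to 3′, with the core in capitals. Capitals that start with TGAC hold the core on the gene's strand, and those that end in GTCA hold it on the opposite strand.
Nfe2l2: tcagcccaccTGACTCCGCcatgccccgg
Gclm: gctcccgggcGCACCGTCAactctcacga
Mgst1: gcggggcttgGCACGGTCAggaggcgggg
Sod1: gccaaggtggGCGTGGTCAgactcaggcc
Txnrd1: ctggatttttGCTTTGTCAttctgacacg
Srxn1: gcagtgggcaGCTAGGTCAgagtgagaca

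The stretches lie at chr2:75704885-75704913 (minus strand) for Nfe2l2, chr3:122245413-122245441 for Gclm, chr6:138140461-138140489 for Mgst1, chr16:90220696-90220724 for Sod1, chr10:82859104-82859132 for Txnrd1 and chr2:152105542-152105570 for Srxn1, the last 5 on the plus strand. The core began 240 bases before the annotated start of Nfe2l2, 134 before that of Gclm, 92 before that of Txnrd1 and 56 before those of Mgst1 and Sod1. In Srxn1 it lay after the start, from base 29. The distances rest on the start that each window was built on. Among genes with a single window, this start matched the RefSeq gene coordinates in 74.7%. Mgst1 had 2 windows and Txnrd1 had 3, and in each gene only 1 of them held the core. The other genes with a core were Prdx1 and G6pdx. The Prdx1 core overlapped TGAGTCA, the letters of an AP-1 site, which 0.503% of genes with a window share in this form. The same core with an A added at its 3′ end was found in 1 of the 27 genes, Txnrd1. That is 3.7%, near the 3.45% of all genes, so the higher share seen with the shorter core is not seen with the longer one.

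**Figure D3:**
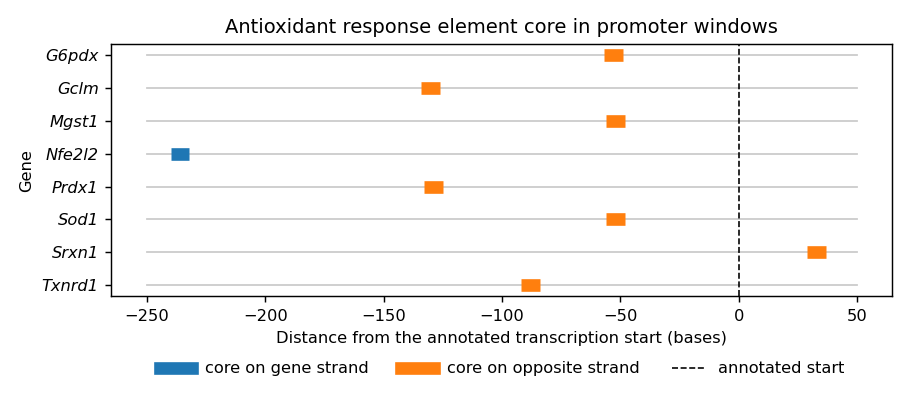
Position of the core in the promoter windows of the 8 genes that hold it (vertical axis), in bases from the annotated transcription start (horizontal axis), with the window drawn as a grey line. The core lies on the opposite strand (orange) in 7 genes and on the gene strand (blue) in Nfe2l2, and 6 of the 8 begin within 150 bases before the start.

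The brightest probe sets of the 6 measured genes with a core lay between the percentiles 81.7 and 99.1, with a median of 95.4. Those of the 18 measured genes whose windows lack it lay between 50.3 and 99.8, with a median of 83.8, so the ranges overlap. On the dimmest probe sets the 6 genes lay between 1.7 and 88.0, with a median of 65.4, and the 18 between 13.1 and 97.8, with a median of 71.8. The order of the medians thus turned with the probe set read, and nothing is drawn from it. Sod2, Gpx4 and Txn1 are among the genes without these letters in their windows, and so is Nqo1. Bases outside the windows, which reach 250 bases before the annotated start, were not searched. These are descriptions of letters, not of NRF2 binding.

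Among the superoxide dismutases, the mitochondrial enzyme gene Sod2 gave 4 signals. They were 10671, 10176, 1533 and 293, and 3 of them lay above the 90th percentile. Sod2 is a well-known target of NF-kB in inflamed cells. The cytosolic enzyme gene Sod1 was read by 5 probe sets, at 1369, 1179.7, 105.3, 103.8 and 10.11. The brightest and dimmest Sod1 values differed 135-fold, so its level rests on which probe set is read. Sod3, the secreted enzyme, read 91.37 and 50.14, with the floor between them. Cat, the peroxisomal catalase that also protects red cells, read 557 and 261, at percentiles 89.0 and 78.9. The 13 probe sets of the dismutases and catalase had a median percentile of 80.9.

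The peroxiredoxins are thiol enzymes that reduce peroxide at a cysteine. With sulfiredoxin, their 11 probe sets had a median percentile of 76.1. Prdx2, which is abundant in red cells, read 509 and 74.67. Prdx3, the mitochondrial member, read 338 on its only probe set, at percentile 83.1. Prdx4, the member of the endoplasmic reticulum, read 292, 128, 30.28 and 29.51, with the last 2 values below the floor. Srxn1, the sulfiredoxin that repairs over-oxidised peroxiredoxins, read 309, 266, 225 and 114, and all 4 lay above the floor. No probe set of these 4 genes reached the 90th percentile, which 11.3% of all probe sets with 1 symbol reached. Prdx1, Prdx5 and Prdx6 are not among these genes, so this does not describe the whole family. The probe sets shared by Prdx1 and Gm21399, left out by the rule, lay at percentiles 96.8, 95.2, 93.3, 92.5 and 14.0. Prdx2 and Cat are both known as red cell proteins. Of the erythroid markers Alas2 read 1693. Slc4a1 read 137 on its brightest probe set and 30.2, below the floor, on its dimmest. Epb42, Klf1 and Hba-a1 lay below the floor even on their brightest, at 62.72, 55.94 and 51.32. The part of erythroid RNA in these signals was not tested.

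Gpx1, Gpx3 and Gpx4 encode glutathione peroxidases that reduce peroxides and carry selenocysteine in their active site. The median percentile of their 4 probe sets was 97.8. Gpx1, the abundant cytosolic member, read 2641 on its only probe set, at percentile 97.7. Gpx4, which reduces lipid peroxides in membranes and protects cells from ferroptosis, read 3479 and 2650.4, at percentiles 98.4 and 97.8. The Gpx4 probe sets differed by 1.31-fold. Gpx3, the secreted plasma form, read 155 on its only probe set, at percentile 67.5.

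The genes that make and recycle glutathione were above the floor on all 8 probe sets, against 63.5% of all probe sets with 1 symbol, and their median percentile was 85.3. Gsr, glutathione reductase, which restores glutathione with NADPH, read 5786 and 4584, at percentiles 99.3 and 99. Gclc, the catalytic subunit of the rate-limiting ligase, read 445 and 358. Its partner Gclm, the modifier subunit, read 1307 and 342, a 3.82-fold difference within the gene. The brighter Gclm value lay above the 90th percentile and the dimmer one below it. Gss, which joins glycine in the last step, read 196 and 120.2, at percentiles 73.2 and 60.

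In the thioredoxin system, Txn1, the cytosolic protein, read 7873 on one probe set and 63.26 on the other, 124-fold apart. Its reductase gene Txnrd1 read 1357, 236 and 189.8. Txn2, the mitochondrial thioredoxin, read 372, 245 and 187. Its reductase gene Txnrd2 read 124.9, 88.48, 85.06 and 63.61. No Txn2 or Txnrd2 value reached the 90th percentile, and 1 of the 4 Txnrd2 values lay below the floor. Txnip, which binds thioredoxin and restrains it and glucose uptake, read 1679 and 1102. Both Txnip values lay above the 90th percentile, at 96.3 and 94.2. Over the 14 probe sets of the thioredoxin system the median percentile was 74.8.

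In the control axis, Nfe2l2, which encodes NRF2, read 3435 and 508, at percentiles 98.4 and 88.0. Keap1, its inhibitor and an adaptor for ubiquitin ligation, read 342 and 182. Nqo1, a quinone reductase widely used as a readout of NRF2, read 326 on its only probe set, at percentile 82.6. The median percentile of these 5 probe sets was 83.2. NRF2 is controlled largely through the stability of its protein, which an array does not measure.

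The glutathione transferases join glutathione to reactive compounds or act in membranes. Mgst1, the microsomal member, read 4943 on one probe set and 39.13 on the other, 126-fold apart, at percentiles 99.1 and 20.3. Mgst2, which can also make leukotriene C4, read 677 on its only probe set, at percentile 90.8. Mgst3 read 90.47 and 84.98, and Gsto1, the omega class enzyme, read 210.2 and 163. Gsta4, which clears the lipid aldehyde hydroxynonenal, read 70.28, just above the floor of 68.77. The probe sets of Mgst3, Gsto1 and Gsta4 thus stood between the percentiles 40.8 and 74.7, and the median of all 8 transferase probe sets was 59.5.

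Agreement between probe sets of a gene was the only check within the array. Of the 28 genes, 22 had several. The median ratio of brightest to dimmest was 2.06, against 3.01 among the 9010 named genes with several. It was under 2 for 11 of the 22, with Mgst3 at 1.06, Gclc at 1.24, Gsr at 1.26, Gsto1 at 1.29 and Gpx4 at 1.31. It was over 10 for Sod1, Sod2, Txn1 and Mgst1, 4 of 22 (18.2%), against 14.7% of named genes. Probe sets of a gene are not replicates, so the ratio is not the error of a signal.

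Related redox genes, from lists chosen by textbook role, were read on their brightest probe set. The members' own median percentile on this measure was 87.4, and that of all named genes was 61.4. Of phagocyte oxidant sources 8 of 9 lay above the floor (71.3% of all named genes did), with the oxidase genes Ncf1 at 10020.4 and Cyba at 5908 and the small GTPase gene Rac2 at 8430.4, while Mpo (myeloperoxidase) read 278 and Nox4 25.33. The median percentile of that list was 99. All 14 NADPH-producing and pentose phosphate enzymes were above the floor, with a median percentile of 85.5. Transketolase Tkt read 4448, Pgd, which makes NADPH, 4203 and transaldolase Taldo1 3848, while H6pd read 75.97 and Mthfd1 106.9.

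NRF2 partners, regulators and other known targets passed the floor in 16 of 19 cases (71.3% of all named genes did), and 10 reached the 90th percentile (14.8% of all named genes did). Ferritin heavy chain Fth1 read 22443, haem oxygenase Hmox1 8429 and the autophagy receptor gene Sqstm1, whose protein binds KEAP1, 7540.2. The reported targets Pir and Cbr3 read 38.63 and 51.68, below the floor. For glutathione precursor supply and breakdown, 9 of 11 passed the floor, against the same 71.3%. Slc3a2 and Slc7a11, the 2 chains of the cystine importer, read 3181 and 1175, and Abcc1, which exports glutathione conjugates, read 2400.1. Cth, which makes cysteine from cystathionine, read 29.05, and the aminopeptidase gene Anpep read 45.24.

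Methionine sulfoxide reductases and selenoprotein genes passed the floor in 12 of 15 cases, against 71.3% of all named genes. Msrb1, a selenoprotein that repairs oxidised methionine, read 9184, Selenok 2444 and Sephs2, which supplies selenium for selenocysteine, 1886, while Msrb2 and Msrb3 read 39.02 and 41.56. Other peroxidases, glutaredoxins and thioredoxin proteins passed in 11 of 15 cases, a share near that of all named genes. Glrx (glutaredoxin) read 2962, Txnl1 1680.4 and Txndc17 757, and Gpx8 and Gpx7 read 25.22 and 47.29. Other glutathione transferases passed in 13 of 16 cases, against the same 71.3%, with 0 at the 90th percentile (14.8% of all named genes) and a median percentile of 54.5. Gstm1 read 372, Gstp1 360.2 and Gstm4 321. Gsta3 and Gsta2, alpha class genes, read 32.01 and 35.05. The brightest probe set hides disagreement in some genes of these lists. Among the genes named, the dimmest values were 333 for Sqstm1, 230.3 for Rac2, 174 for Tkt, 110.9 for Gstm1 and 77.56 for Txndc17. They were 833 for Abcc1 and 504 for Slc7a11. For Txnl1 and Mthfd1 they were 5.41 and 11.09, below the floor that the brightest probe sets of both genes passed.

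**Figure D4:**
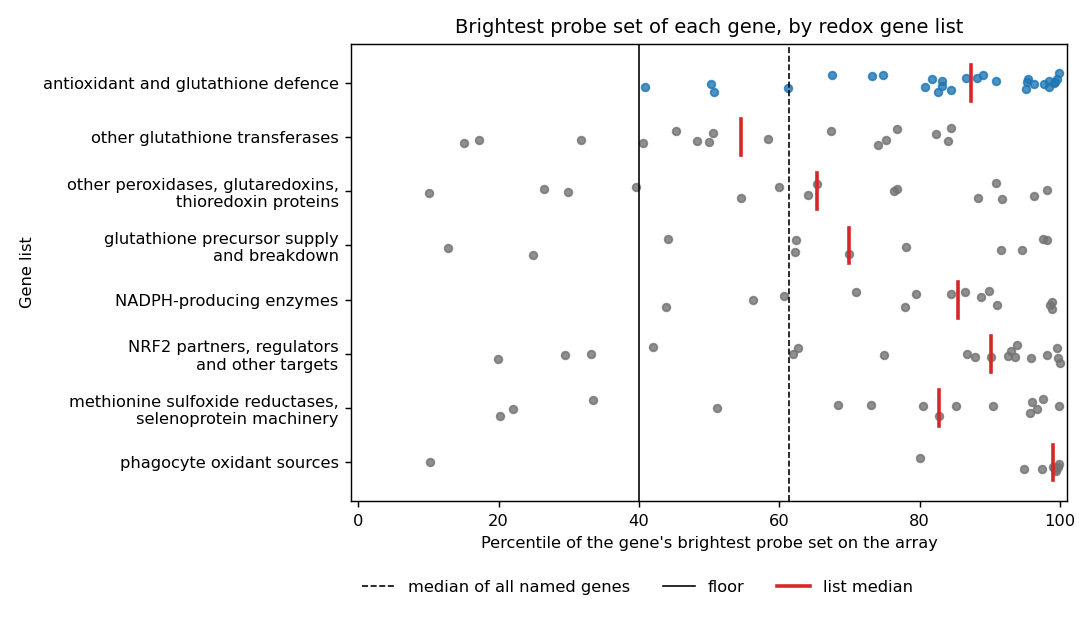
Percentile of the brightest probe set of each gene (horizontal axis, points) in the antioxidant and glutathione genes (blue) and 7 related lists (grey), with the list median as a red bar, the floor as a solid line and the median of all named genes (61.4) as a dashed line. The red bars stand at 87.4 for the antioxidant and glutathione genes, 54.5 for other glutathione transferases and 99 for phagocyte oxidant sources.

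Sod3, Gpx3, Nqo1 and Gsta4 are known to be expressed in stromal or epithelial cells. Of the stromal markers Col1a1 read 270.02 and Col1a2 95.98 on their brightest probe sets. On their dimmest they read 34.71 and 27.56, below the floor. Col3a1, Dcn, Pdgfrb and Lum lay below the floor even on their brightest, at 63.03, 57.75, 55.2 and 37.55. Of the epithelial markers Upk1b read 170.5 and Epcam 158.9 on their brightest probe sets, and 3.76 and 58.32, below the floor, on their dimmest. Krt8 read 106.9 on its brightest and 46.62, below the floor, on its dimmest. Krt18, Msln and Krt7 lay above the floor on their only probe sets, at 94.87, 87.77 and 71.42. Wt1 and Krt19 lay below the floor at 52.31 and 46.03. The part of either cell type in these signals was not tested.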

How the data were processed

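Each sample was hybridised to 1 array. The deposited column holds a linear signal intensity per probe set, made with MAS5 per the submitters' processing notes. The sources used here give no version, scaling target or detection call. Per the labels' protocols, cRNA came from 6 ug of total RNA. The values were used as deposited. The control column is ordered along the probe set IDs and was not read per gene, so no fold change or test was computed. Each probe set was kept separate, its percentile taken over all 45037 probe sets, and the floor set at the 40th percentile. Members, lists and the rule for named genes (every member, and the 3 with the highest and 2 with the lowest signal of each related list) were chosen with earlier results of these data known. Protein features listed in the design were not analysed here. Percentiles, floor calls and the motif search were tested on simulated data. The alternatives tried were a floor at the 20th or the 60th percentile, probe sets without a suffix letter, the brightest probe set or mean log2 signal a gene, percentiles among named probe sets and a longer motif. Computation used Python 3.11.15, numpy 2.4.6 and pandas 2.3.3.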

Additional observations from a re-analysis of the deposited data

Results flagged for a closer look

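The bone marrow control column is a measured column that no description of these genes uses, and its highest signal was 26083.92, in the first row of the table. The 5 probe sets annotated to both Prdx1 and Gm21399 were left out by the rule on symbols. Their signals were 1959.08, 1332, 946, 846 and 30.65, of which 4 lay above the 90th percentile, and they cannot be assigned to either gene.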

How the results depend on the processing

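No paired analysis was possible because each group held 1 array and no test was made. Of 42 alternative values, 33 stayed within 1.5 times (counts) or 10 percentile points (medians) of the reported value. With probe sets without a suffix letter, 36 of the 40 remaining member probe sets lay above the floor (90%), fewer than 56 because fewer were read, and the median percentile was 82.6 for glutathione peroxidases (97.8 with all probe sets) and 49.2 for glutathione transferases (59.5). With the brightest probe set a gene, it was 92.2 for superoxide dismutases and catalase (80.9 with each probe set counted), 95.3 for the thioredoxin system (74.8) and 74.7 for glutathione transferases. With the mean log2 signal a gene, it was 85.1 and 71.9 for the last 2. The longer motif left 1 gene in place of 8. That is 3.7% of members with a window against 3.45% of all genes, where the shorter one gave 29.6% against 14.0%. The higher share among members was thus not seen with the longer motif. Probe set signals near the floor, such as that of Gsta4, change side with the floor: 60 member probe sets passed it at the 20th percentile and 46 at the 60th.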

Other observations

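The promoter windows of these genes were rich in G and C. Over the 33 windows of 27 genes the median GC content was 60.7% (range 43.0% to 79.7%), against 52.7% over all 32851 windows, and the median number of CpG pairs was 18 against 7. Of the genes in the related redox lists, 13 of 89 with a window held the core TGACNNNGC, against 14.0% of all genes with a window. Of these, Maff, Mafg, Mafk and Pir belong to the NRF2 partners, regulators and other targets (4 of 18 with a window), Maff, Mafg and Mafk being small MAF proteins that pair with NRF2 on DNA. Of the phagocyte oxidant sources 0 of 7 did, which says only that these letters are not in those windows.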
